A study of Mus musculus with 6 samples.

Results

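Transporters of the hepatocyte membranes that secrete bile and exchange solutes with blood were described in mouse liver, as 9 genes out of 29981 rows of the deposited expression table. They were chosen by symbol. The 5 canalicular exporters were Abcb11, Abcb4, Abcc2, Abcg5 and Abcg8, and the 4 sinusoidal carriers were Abcc3, Slc10a1, Slco1a1 and Slco1b2. Each symbol matched a single row that named no other gene. Liver RNA came from C57BL/6 mice with an Abca1 deletion driven by Albumin-Cre, a recombinase under the albumin promoter that acts in hepatocytes (HSKO, n = 3), and from floxed controls whose genotype label reads wildtype (WT, n = 3). All mice went without food from 9 am to 1 pm before the liver was taken. The sources used here give neither age nor sex, and do not say whether the controls carried Cre. No label ties a sample to a named animal, so a p-value here speaks of the spread among the 6 samples, which may be technical.

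Bile is formed at the canaliculus, the apical groove between neighbouring hepatocytes, by ATP-driven pumps. Abcb11 (the bile salt export pump) secretes bile salts, Abcb4 moves phosphatidylcholine to the outer leaflet, the Abcg5-Abcg8 heterodimer exports cholesterol and plant sterols, and Abcc2 exports bilirubin glucuronides and glutathione conjugates. At the sinusoidal face, which meets the blood, Slc10a1 takes up conjugated bile salts with sodium, Slco1a1 and Slco1b2 take up organic anions without it, and Abcc3 pumps conjugates back into blood. Abca1, the deleted gene, loads cholesterol and phospholipid onto apolipoprotein A-I.

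The libraries were shallow. Read totals were 631020 to 702013 in HSKO and 838637 to 933319 in WT, and a single row, BC071253, held 46.2% to 57.8% of reads in HSKO and 43.1% to 52.9% in WT. Each value in the table is a read number divided by a size factor of the library, and both the value (called the level here) and the reads behind it are given. Abca1 had 2, 1 and 2 reads in HSKO and 20, 36 and 34 reads in WT, so the targeted transcript matched the label in all 6 libraries. Hepatocyte identity was checked with 13 markers such as albumin and transthyretin. All 13 were detected, with a summed level of 8741 to 13680 in HSKO and 14020 to 17032 in WT, and 5 of the 13 were called lower in HSKO, where 11.6% of all genes were. The count was 0 without HSKO replicate 1, 0 without HSKO replicate 2, 1 without WT replicate 2 and 3 without WT replicate 3, and it was 10 with edgeR, 1 with no filter on low values and 0 without the mean-variance trend. Of all 2750 genes tested, 157 to 313 were lower with a library left out, and 266 without the trend. With edgeR 21.9% of all genes were lower, and with no filter 211 of 13807. Some markers of other cell types were called lower too. Dcn, the proteoglycan decorin and the only stellate cell marker tested, averaged 7.07 ± 2.92 in HSKO and 19.5 ± 1.40 in WT (log2 fold change -1.41, adjusted p = 0.00626) and was called with any library left out. Cd5l, a macrophage marker and 1 of 2 tested, had a log2 fold change of -1.18 (adjusted p = 0.0442), a call kept in 2 of the 6 fits with a library left out. With HSKO means of 7.07 (Dcn) and 6.46 (Cd5l), both passed the minimum mean of 10 for testing only through WT. That filter favours a lower call for such genes. Both lost the call when libraries were scaled to the hepatocyte markers, where 0.764% of all genes were lower. Cd5l also lost it with quantile normalization. Marco, the other macrophage marker tested, had a log2 fold change of 1.01 and was not called (adjusted p = 0.219). Eng, the only endothelial marker tested, and Alas2, the only red blood cell marker tested, were not called either. Their log2 fold changes were 0.28 and 0.07 (adjusted p = 0.437 and 0.875). The part of these markers in the differences of the transporters was not tested. In whole liver, fewer hepatocytes and less RNA per hepatocyte cannot be told apart. Among the 10 cholangiocyte markers, Krt19, Krt7 and Cldn4 had no read in any library, and the summed level of the list was 5.82 to 19.0 in HSKO and 11.3 to 17.8 in WT.

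Upstream sequences are shown for transporters of both sides because Abcb11 and Slco1b2, both called lower in HSKO, carried a like element. They were chosen after their values were seen. RefSeq promoter windows (build GRCm38.p6, the assembly behind mm10) existed for 8 of the 9 members, and the 250 bases before each start were searched on both strands. The search covered AGGTCA, the hexamer bound by many nuclear receptors, its inverted repeat with a spacer of 1 base (IR-1, AGGTCANTGACCT, the element known for the bile acid receptor FXR), and its direct repeats DR-1 (AGGTCANAGGTCA) and DR-4 (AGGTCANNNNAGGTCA). It also covered the TATA box (TATAAA). Capitals in the sequences of Abcb11 and Slco1b2 mark their closest match to IR-1. Slc10a1, the bile salt carrier, has no match to IR-1 within 1 mismatch to mark. The stretch between the Abcg5 and Abcg8 starts has its TATA box in capitals. TATAAA also occurs in the printed windows of Slco1b2 and, on the other strand, of Slc10a1, where it is left in small letters. All run from 5′ to 3′.
Abcb11, chr2:69342617-69342866, minus strand: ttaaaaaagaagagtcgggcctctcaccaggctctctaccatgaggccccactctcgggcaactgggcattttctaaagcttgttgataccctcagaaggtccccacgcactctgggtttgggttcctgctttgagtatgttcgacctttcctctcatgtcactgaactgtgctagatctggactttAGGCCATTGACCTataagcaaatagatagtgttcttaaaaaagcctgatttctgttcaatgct
Slco1b2, chr6:141629268-141629517, plus strand: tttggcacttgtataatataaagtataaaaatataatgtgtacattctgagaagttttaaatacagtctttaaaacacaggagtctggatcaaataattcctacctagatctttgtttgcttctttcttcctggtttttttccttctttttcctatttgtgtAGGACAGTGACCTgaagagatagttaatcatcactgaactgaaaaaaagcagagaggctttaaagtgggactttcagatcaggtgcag
Slc10a1, chr12:80968706-80968955, minus strand: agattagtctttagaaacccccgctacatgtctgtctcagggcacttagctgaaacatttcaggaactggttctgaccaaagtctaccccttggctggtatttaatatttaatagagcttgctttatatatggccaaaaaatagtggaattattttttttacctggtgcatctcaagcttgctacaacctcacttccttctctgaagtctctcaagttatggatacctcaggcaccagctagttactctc
Abcg5 to Abcg8, chr17:84683012-84683120, plus strand: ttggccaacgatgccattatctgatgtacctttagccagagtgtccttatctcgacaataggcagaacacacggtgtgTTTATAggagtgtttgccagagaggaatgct

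The element of Abcb11 differed from IR-1 at 1 base, T4C, and that of Slco1b2 at 1 base, T4A, counting from the 5′ end of the motif. It lay 63 to 51 bases upstream of the start in Abcb11 and 88 to 76 bases upstream in Slco1b2. Abcb4 and Abcc2, also called lower in HSKO, had no such element, as their closest match to IR-1 held 4 mismatches in each. The element was thus not shared by all members called lower. Up to 1 mismatch to IR-1 was found in 26 of 32851 windows of the genome (0.0791%), and an exact match in 2. Those 26 windows belonged to 26 genes, of which 4 passed the expression filter. These were both transporters and Nbr1 (log2 fold change -0.14, adjusted p = 0.681) and Saa4 (0.38, adjusted p = 0.373), which were not called. The hexamer AGGTCA also ends the marked elements as its reverse complement TGACCT. It was present in a window of 5 of the 8 members (Abcb11, Abcc2, Slc10a1, Slco1a1 and Slco1b2). These were 5 of the 10 windows of members, against 14% of all windows. No member held an exact IR-1, DR-1, DR-4 or HNF1 palindrome in its windows. TATAAA was found for 5 of the 8, in 5 of their 10 windows, against 12.4% of all windows. The matches of Abcg5 and Abcg8 are the same 6 bases between their starts, so 1 sequence counts for both. In Slc10a1 the hexamer lay in the window of a second RefSeq start, not in the one printed. The starts of Abcg5 and Abcg8 printed here lie 110 bases apart on opposite strands. A second RefSeq start of Abcg8 lies elsewhere, inside Abcg5, and its window is not printed.

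The canalicular pumps for bile salts, conjugates and phospholipid were all called lower in HSKO, with means 1.96 to 2.71 times below those of WT. Abcb11 (chromosome 2, 69238282 to 69342616, minus strand, GENCODE M21 on mm10) had 18, 20 and 20 reads in HSKO and 70, 117 and 140 reads in WT. Its levels were 26.3, 29.1 and 26.6 in HSKO and 53.4, 77.0 and 79.0 in WT. The HSKO libraries lay close together and well below every WT library, of which WT replicate 1 was the lowest. The mean level was 27.3 ± 1.52 in HSKO and 69.8 ± 14.2 in WT (SD, n = 3 each), and the log2 fold change (HSKO minus WT) was -1.30 (SE 0.26, limma adjusted p = 0.00106). Fold changes are on the scale of log2(level + 1), which understates the change of low genes.

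Abcc2 (chromosome 19, 43782192 to 43840740, plus strand), the exporter of organic anion conjugates, had 16, 14 and 21 reads in HSKO and 77, 102 and 121 reads in WT. Its levels were 23.4, 20.4 and 27.9 in HSKO and 58.8, 67.1 and 68.2 in WT. No HSKO library reached any WT library, and the mean was 2.71 times lower in HSKO (23.9 ± 3.81) than in WT (64.7 ± 5.18). The log2 fold change was -1.41 (SE 0.26, adjusted p = 0.000773), the 37th lowest of the 2750 genes tested, and that of Abcb11 was the 63rd lowest.

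Abcb4 (chromosome 5, 8893717 to 8959231, plus strand), the phosphatidylcholine floppase, had 21, 17 and 20 reads in HSKO and 66, 84 and 97 reads in WT. Levels of 30.7, 24.7 and 26.6 in HSKO stood against 50.4, 55.3 and 54.7 in WT, again without overlap. The mean was 27.3 ± 3.06 in HSKO and 53.5 ± 2.69 in WT, and the log2 fold change was -0.95 (SE 0.25, adjusted p = 0.00617). Its near relatives Abcb1a and Abcb1b had at most 2 reads in any library. Leaving out each library in turn kept Abcb11, Abcc2 and Abcb4 called, with the highest adjusted p at 0.00878, 0.00617 and 0.0329 in that order.

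**Figure D1:**
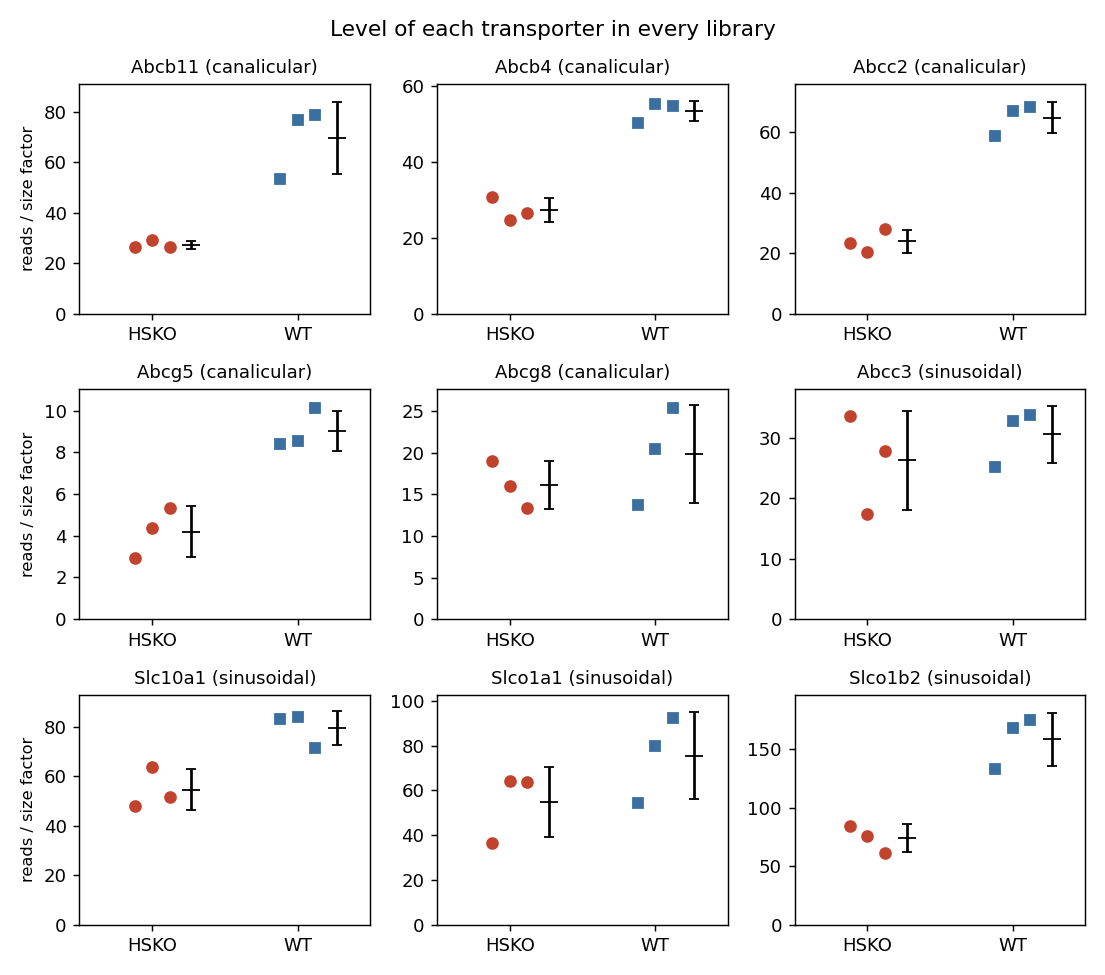
Level (reads divided by the size factor of the library, linear axis from 0) of each of the 9 transporters, with a point for each library, HSKO as circles and WT as squares, and a bar for the mean ± SD of each group (n = 3). The groups do not overlap for Abcb11, Abcb4, Abcc2, Abcg5, Slc10a1 and Slco1b2, with HSKO lower, and overlap for Abcg8, Abcc3 and Slco1a1.

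Neither subunit of the sterol exporter was called. Abcg5 (chromosome 17, 84658234 to 84683011, minus strand) had 2, 3 and 4 reads in HSKO and 11, 13 and 18 reads in WT. Its levels were 2.92, 4.36 and 5.32 in HSKO and 8.39, 8.55 and 10.2 in WT, so the groups did not overlap. With a mean level of 6.62 over all libraries it was below the minimum of 10 set for testing. Without that minimum its log2 fold change was -0.97 and it did not pass (adjusted p = 0.224). After correction for size factors, HSKO had 0.464 reads per WT read (exact 95% interval for counting error 0.199 to 0.968).

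Abcg8 (chromosome 17, 84676302 to 84700333, plus strand) had 13, 11 and 10 reads in HSKO and 18, 31 and 45 reads in WT. Levels of 19.0, 16.0 and 13.3 in HSKO overlapped with 13.7, 20.4 and 25.4 in WT, and the gene was not called (log2 fold change -0.26, SE 0.31, adjusted p = 0.522). Within a library, which needs no scaling, Abcg5 had 0.154, 0.273 and 0.400 reads per Abcg8 read in HSKO and 0.611, 0.419 and 0.400 in WT. The lowest WT library thus equalled the highest HSKO library. Pooled over libraries the ratio was 0.265 in HSKO (exact 95% interval 0.112 to 0.564) and 0.447 in WT (0.303 to 0.649). These intervals overlap, but they hold counting error alone and their overlap is not a test of the difference. The mean log2 ratio differed by -0.87 (HSKO minus WT). Unequal change of the subunits was not tested. The annotated exons of the subunit genes overlap by up to 82 bases on opposite strands, and reads there cannot be assigned without the strand setting of the counting, which the sources used here do not give. For Abcb11 the overlap with predicted genes on the other strand was 136 of 5146 exon bases, and none of the other members shared exon bases with another gene.

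Among the sinusoidal carriers, Slco1b2 stood lowest in HSKO relative to WT. Slco1b2 (chromosome 6, 141629518 to 141686646, plus strand), which takes up bile acids, bilirubin and drugs, had 58, 52 and 46 reads in HSKO and 174, 256 and 310 reads in WT. Its levels were 84.8, 75.6 and 61.2 in HSKO and 133, 168 and 175 in WT. Every HSKO library was below every WT library, and the mean was 2.15 times lower in HSKO (73.9 ± 11.9) than in WT (159 ± 22.7). The log2 fold change was -1.10 (SE 0.24, adjusted p = 0.00182), and the adjusted p was at most 0.0138 when any single library was left out.

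Slc10a1 (chromosome 12, 80953183 to 80968705, minus strand), the sodium-dependent bile salt carrier, had 33, 44 and 39 reads in HSKO and 109, 128 and 127 reads in WT. Levels were 48.2, 64.0 and 51.9 in HSKO and 83.2, 84.2 and 71.6 in WT. The groups did not overlap, but the gene did not pass (log2 fold change -0.54, SE 0.24, adjusted p = 0.0817). Slco1a1 (chromosome 6, 141907282 to 141946962, minus strand), an organic anion carrier on the same chromosome as Slco1b2, had 25, 44 and 48 reads in HSKO and 71, 121 and 164 reads in WT. Its levels of 36.5, 64.0 and 63.8 in HSKO overlapped with 54.2, 79.6 and 92.5 in WT, and replicate 1 was the lowest library of each group (log2 fold change -0.47, SE 0.28, adjusted p = 0.193). Slco1a4, a related carrier, had at most 4 reads in HSKO and at most 17 in WT.

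Abcc3 (chromosome 11, 94343295 to 94392997, minus strand), the only exporter of the sinusoidal group, had 23, 12 and 21 reads in HSKO and 33, 50 and 60 reads in WT. Its levels were 33.6, 17.4 and 27.9 in HSKO and 25.2, 32.9 and 33.8 in WT. HSKO replicate 2 was the lowest library and HSKO replicates 1 and 3 lay among the WT libraries (log2 fold change -0.25, SE 0.29, adjusted p = 0.506). Without HSKO replicate 2 the log2 fold change was 0.01. The corrected ratio of HSKO to WT reads was 0.849 (exact 95% interval for counting error 0.612 to 1.16), so a change of either direction within that range was not detectable.

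In all, 3 of the 4 canalicular exporters tested and 1 of the 4 sinusoidal carriers were called lower, 0 members were called higher, against 11.6% of the 2750 genes tested called lower and 28.5% called higher. No member was higher by limma at an unadjusted p under 0.05, where 32.1% of all genes were, nor by edgeR (24.9% of all genes higher) or DESeq2 (21.2% higher, 11.8% lower) after adjustment. The median log2 fold change was -1.12 for the canalicular exporters tested, -0.50 for the sinusoidal carriers and 0.07 for all genes tested. The groups did not overlap, with HSKO lower, for 5 of the 8 members tested, against 20.1% of all genes, and for 0 with HSKO higher, against 31.4%. All 8 had a mean above the minimum in both groups.

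Setting the canalicular exporters against the sinusoidal carriers of the same library removes the scaling. Summed canalicular reads were 70, 65 and 75 in HSKO and 242, 347 and 421 in WT, and summed sinusoidal reads were 139, 152 and 154 in HSKO and 387, 555 and 661 in WT. There were 0.504, 0.428 and 0.487 canalicular reads per sinusoidal read in HSKO and 0.625, 0.625 and 0.637 in WT. The WT libraries were nearly equal, and all HSKO libraries were below them, at a mean of 0.473 ± 0.0399 in HSKO and 0.629 ± 0.00672 in WT (SD, n = 3 each). The mean log2 ratio differed by -0.42 (HSKO minus WT). Leaving Slco1b2 out of the sums moved this to -0.67, and leaving out Abcc2 or Abcg8 moved it to -0.30 or -0.54, with the same sign for each of the 9 members left out.

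Abcb11 and Abcc2 were the exporters whose share of the sinusoidal reads did not overlap between groups. Abcb11 reads were 12.95%, 13.2% and 12.99% of summed sinusoidal reads in HSKO and 18.1%, 21.1% and 21.2% in WT. Abcc2 reads were 11.5%, 9.21% and 13.6% in HSKO and 19.9%, 18.4% and 18.3% in WT. Among all genes tested, 2.22% did not overlap with HSKO lower when set against the same sum, and 50.8% did not overlap with HSKO higher. Abcb4, Abcg5 and Abcg8 overlapped, and Abcg8 had the higher mean in HSKO, at 7.69% ± 1.48, against 5.68% ± 1.08 in WT. With libraries scaled to the sinusoidal sum, a choice made after the data were seen, limma called 0 of the 4 canalicular exporters tested, 0.582% of all genes lower and 45.7% higher. Abcc2 was nearest to the threshold with a log2 fold change of -0.72 (adjusted p = 0.0527) and Abcb11 had -0.61 (adjusted p = 0.0959). Both had an unadjusted p under 0.05 with that scaling, so 2 of the 4 were lower without adjustment, as were 1.2% of all genes. Neither edgeR nor DESeq2 was run with it.

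**Figure D2:**
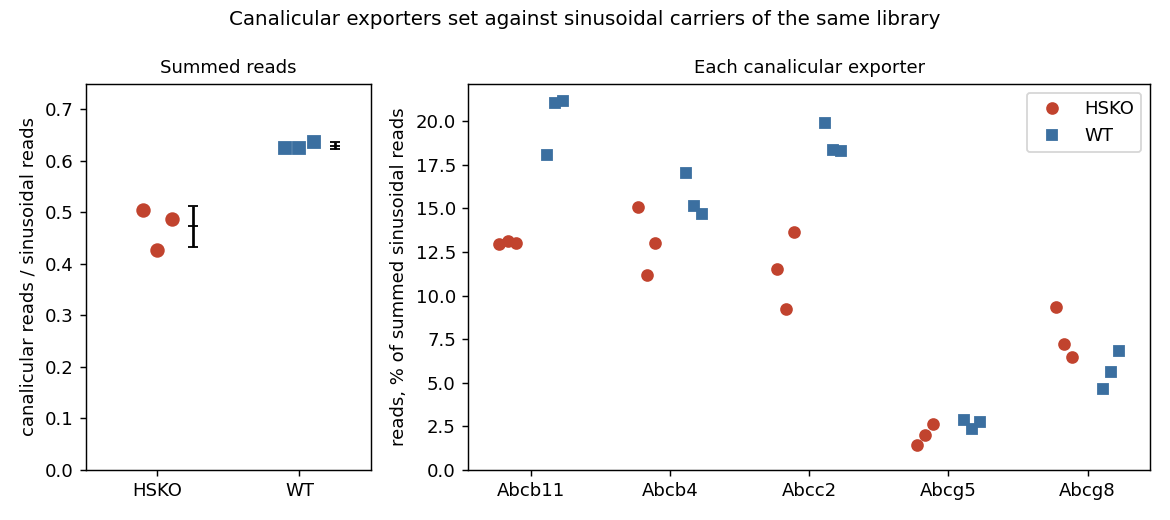
Left, canalicular reads per sinusoidal read in each library with the mean ± SD of the group (n = 3), and right, reads of each canalicular exporter as a percent of the summed sinusoidal reads of its library, with HSKO as circles and WT as squares. HSKO lies at 0.428 to 0.504 and WT at 0.625 to 0.637 on the left, and on the right the groups are apart for Abcb11 and Abcc2 only.

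Pairs of carriers were also compared within each library. Abcb11, the exit route of bile salts, had 0.545, 0.455 and 0.513 reads per read of Slc10a1, their entry route, in HSKO and 0.642, 0.914 and 1.10 in WT, without overlap. Abcc2 had 0.696, 1.17 and 1.00 reads per read of Abcc3, which carries similar conjugates the other way, in HSKO and 2.33, 2.04 and 2.02 in WT. Those groups did not overlap, and the mean ratio was 0.954 ± 0.239 in HSKO and 2.13 ± 0.176 in WT. Abcb4 had 0.386 to 0.636 reads per Slc10a1 read in HSKO and 0.606 to 0.764 in WT, with overlap. For Abcb11 against Abcb4 the groups overlapped, at 0.857 to 1.18 in HSKO and 1.06 to 1.44 in WT. The uptake carriers Slco1b2 and Slc10a1 overlapped as well, with 1.18 to 1.76 Slco1b2 reads per Slc10a1 read in HSKO and 1.60 to 2.44 in WT. Slco1b2 had 0.958 to 2.32 reads per Slco1a1 read in HSKO and 1.89 to 2.45 in WT, also with overlap. The pairs are of members chosen with earlier results of these data known. The share of all gene pairs without overlap was not counted.

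The number of members called depended on the scaling. Besides the scaling to the sinusoidal carriers, under which no canalicular exporter was called, 7 scalings were compared. Abcc2 was called lower in each of these 7, with a log2 fold change of -2.06 to -0.87. Abcb11, Abcb4 and Slco1b2 were called lower in 6 of the 7 and lost the call with scaling to hepatocyte markers, at -0.76, -0.40 and -0.54 (adjusted p = 0.0664, 0.374 and 0.215). That scaling called 0.764% of all genes lower and 38.9% higher and moved the median of all genes to 0.60. Slc10a1 and Slco1a1 were called lower in 5 of the 7, among them edgeR with TMM, where the adjusted p was 0.0129 and 0.0367 and 21.9% of all genes were called lower. Upper quartile scaling (25.6% of all genes lower, 21.1% higher) and quantile normalization (18.3% lower, 21.6% higher) called the same number of members on each side, 3 and 3. With total reads all 8 members tested were called lower, where 38% of all genes were lower, 8.04% were higher and the median of all genes was -0.57. Without BC071253 in the total, 7 were called lower, where 33.2% of all genes were lower and 15.6% higher. Scaled to hepatocyte markers, Abcg8, Abcc3, Slc10a1 and Slco1a1 had log2 fold changes above 0, none of them called. The 13 hepatocyte markers made up 0.948% to 1.59% of reads in HSKO and 2.06% to 3.60% in WT, and their part in the differences was not tested.

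**Figure D3:**
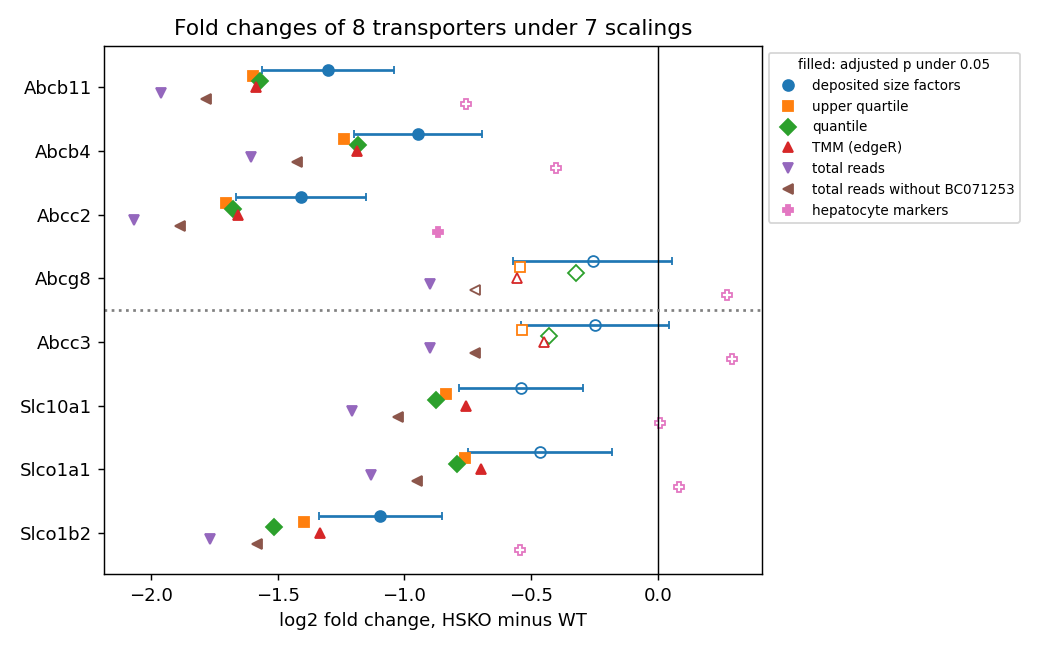
Log2 fold change (HSKO minus WT, horizontal axis) of the 8 transporters tested under 7 scalings, shown by symbol, with the SE as a bar for the deposited size factors, filled symbols for an adjusted p below 0.05 and a dotted line between canalicular exporters (above) and sinusoidal carriers (below). Abcc2 is filled throughout, and the symbols for hepatocyte markers lie farthest to the right for every gene.

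Per kilobase of exon, the uptake carriers were the most abundant members in both groups. In HSKO the order was Slc10a1 (24.9 ± 3.75 per kb), Slco1b2 (22.3 ± 3.60), Slco1a1 (13.5 ± 3.90), Abcb4 (6.70 ± 0.75), Abcb11 (5.31 ± 0.30), Abcc3 (5.26 ± 1.64), Abcg8 (4.29 ± 0.76), Abcc2 (2.98 ± 0.47) and Abcg5 (1.74 ± 0.50). In WT, Slco1b2 had a level of 48.0 ± 6.85 per kb, Slc10a1 36.2 ± 3.18 and Slco1a1 18.6 ± 4.81, followed by Abcb11 at 13.6 ± 2.76 and Abcb4 at 13.1 ± 0.66. Below these came Abcc2 at 8.06 ± 0.65, Abcc3 at 6.12 ± 0.95, Abcg8 at 5.29 ± 1.56 and Abcg5 at 3.73 ± 0.40. Abcc2 was thus the eighth of 9 in HSKO and the sixth in WT. This rank depends on its exon union of 8027 bases, the longest among the members. Before division by length its mean level in HSKO (23.9) was above that of Abcg8 (16.1). Neighbours whose libraries overlapped were Slc10a1 with Slco1b2, Abcb11 with Abcc3, and Abcc3 with Abcg8 in HSKO, and Slco1a1 with Abcb11, Abcb11 with Abcb4, Abcc3 with Abcg8, and Abcg8 with Abcg5 in WT.

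**Figure D4:**
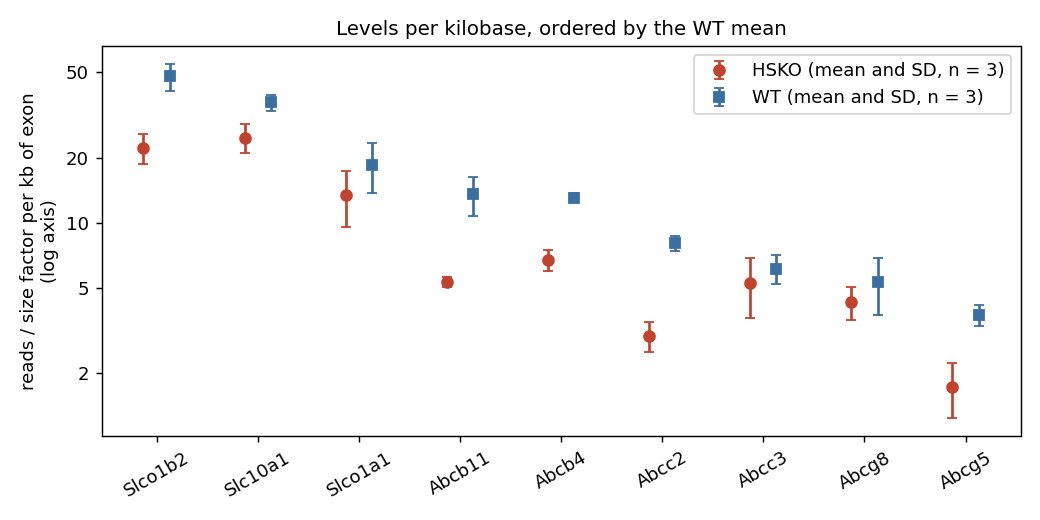
Level per kilobase of exon (log axis) of the 9 transporters, as mean and SD over 3 libraries, with HSKO as circles and WT as squares, ordered by the WT mean. Slco1b2 leads in WT at 48.0 and Slc10a1 in HSKO at 24.9, and the HSKO mean is below the WT mean for all 9.

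Other transporters of the hepatocyte were counted from lists. None of the 10 other canalicular transporters listed passed the expression filter, among them Abcg2 and Atp8b1, the aminophospholipid flippase. Of 11 tested carriers on the list of sinusoidal uptake, 2 were lower and 0 higher in HSKO, against 11.6% and 28.5% of all genes, with a median of 0.06. That list holds Slc25a47, a carrier of mitochondria, and without it the count was 2 of 10 and the median -0.17. Limma without adjustment, edgeR and DESeq2 also called 0 of the 11 higher, where 32.1%, 24.9% and 21.2% of all genes were. Slc2a2, the glucose transporter of the hepatocyte, had a mean of 11.4 ± 2.85 in HSKO and 33.5 ± 3.73 in WT (log2 fold change -1.50, adjusted p = 0.00098) and was called in all 7 scalings. With scaling to hepatocyte markers 1 of the 11 was lower and 2 were higher, where 0.764% of all genes were lower and 38.9% higher. Of the other sinusoidal exporters, 3 were tested. Abca1, the deleted gene, was called lower, which the genotype fixed in advance, and it passed the filter only through WT. Slc40a1 and Abcc6 were not called by limma (log2 fold change -0.55 and 0.19, adjusted p = 0.187 and 0.651). Over all genes 11.6% were lower and 28.5% higher. Slc40a1 was called lower in 3 of the 7 scalings. The organic solute transporter subunits Slc51a and Slc51b had no read in any library.

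Regulators known to act on these genes gave calls in both directions, with 1 of 8 tested lower and 2 higher (median -0.02), shares near the 11.6% and 28.5% of all genes. With total reads 4 were lower and 0 higher, where 38% of all genes were lower and 8.04% higher. With hepatocyte markers 0 were lower and 3 higher, where 0.764% of all genes were lower and 38.9% higher. Nr1h4, which encodes FXR, the bile acid receptor that drives Abcb11, had 13, 14 and 18 reads in HSKO and 58, 36 and 60 reads in WT. Its levels were 19.0, 20.4 and 23.9 in HSKO and 44.3, 23.7 and 33.8 in WT, and HSKO replicate 3 overlapped with WT replicate 2 (log2 fold change -0.62, SE 0.29, adjusted p = 0.0889). It was called lower in 5 of the 7 scalings. Nr0b2, the FXR target that encodes SHP, had 2, 3 and 2 reads in HSKO and 6, 1 and 6 in WT, too few to test. Its mean level was 3.32 ± 0.92 in HSKO and 2.87 ± 2.01 in WT.

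Nr1i3, which encodes the constitutive androstane receptor CAR, known to induce Abcc2 and Abcc3, was higher in HSKO, at 108, 71.3 and 112, against 41.2, 37.5 and 38.4 in WT. Its log2 fold change was 1.27 (SE 0.26, adjusted p = 0.00114), called in 6 of the 7 scalings and not with total reads. Ppara, a receptor for fatty acids, was lower, with a mean of 19.6 ± 6.28 in HSKO and 42.3 ± 2.72 in WT (adjusted p = 0.00429), and lost the call only with scaling to hepatocyte markers. The pioneer factor Foxa1 was higher, at 35.6 ± 13.5 in HSKO and 15.2 ± 1.08 in WT (adjusted p = 0.00939), but not called with either scaling to total reads or without HSKO replicate 2 (adjusted p = 0.0570). Hnf4a, a nuclear receptor of hepatocyte identity, was at 67.5 ± 11.1 in HSKO and 69.9 ± 4.54 in WT and was not called (adjusted p = 0.861). Nr1h3, the liver X receptor gene whose protein drives Abcg5 and Abcg8, had 5, 6 and 4 reads in HSKO and 23, 15 and 19 reads in WT. Its mean level was 7.12 ± 1.71 in HSKO and 12.7 ± 4.21 in WT, and it was below the minimum.

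The list of canalicular trafficking and scaffold genes also holds surface proteins such as Dpp4, Anpep and Ceacam1. Its row for Rdx also names BC147413. Of this list 8 were tested, of which 0 were lower and 2 higher (median -0.46), against 11.6% and 28.5% of all genes. Without adjustment limma again had 0 lower, and after adjustment edgeR called 3 lower and DESeq2 0, where 21.9% and 11.8% of all genes were lower. With total reads 6 were lower and 0 higher, where 38% of all genes were lower and 8.04% higher. Stx3, a syntaxin of the apical membrane, had levels of 383, 371 and 364 in HSKO and 232, 160 and 138 in WT (log2 fold change 1.11, adjusted p = 0.00165). It was called in 6 of the 7 scalings and not with total reads, and its raw reads were 262, 255 and 274 in HSKO and 304, 243 and 245 in WT. Pdzk1, a scaffold for transporters of the membrane, averaged 73.7 ± 20.1 in HSKO and 43.4 ± 5.93 in WT (adjusted p = 0.0391), and this call held in 2 of the 7 scalings and in 2 of the 6 fits with a library left out.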

How the data were processed

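Messenger RNA of 6 liver samples was sequenced from stranded libraries in paired reads on an Illumina HiSeq, per the labels' protocols. In the deposited table the signal of a gene is its reads over the size factor of that library, a scaling done by the authors. DESeq 1.16.0, RSEM 1.2.9, Bowtie, FastQC 0.11.3 and the build mm10 stand in the submitters' processing notes, without roles. The sources used here do not give the annotation, filters or strand setting of the counting.

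Dividing by the smallest value above 0 in each library gave whole reads for 100% of values within a tolerance of 0.001. Levels were tested with limma 3.58.1 (R 4.3.3) with a mean-variance trend on log2(value + 1), 2-sided, for 2750 rows whose mean was at least 10, with Benjamini-Hochberg adjustment at 0.05. DESeq2 1.42.0 and edgeR 4.0.16 were run on the recovered reads as alternatives and called 325 lower and 584 higher (DESeq2) and 601 lower and 684 higher (edgeR). Other scalings, filters, pseudocounts, the replicate number as a block and each library left out were also tried. The 7 scalings compared were the deposited size factors, upper quartile, quantile, TMM in edgeR, total reads, total reads without BC071253 and 13 hepatocyte markers. Upper quartiles were taken over tested rows, which was decided with the data in view. Intervals are exact at 95% and hold counting error alone, as amplified copies could not be counted out. Exon lengths are unions over coding transcripts of GENCODE M21, and promoter sequences are from RefSeq (GRCm38.p6).

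All 9 members are named, and of each other list up to 3 called genes with the smallest p and fixed regulators. Some genes that this rule names are not reported here. The members and lists were chosen with earlier results of these data known. Summed levels of other marker lists were 23.4 to 62.5 in HSKO and 35.9 to 83.6 in WT for Kupffer cells (9 rows), 52.3 to 87.7 in HSKO and 78.3 to 85.7 in WT for endothelial cells (10), and 16.1 to 33.4 in HSKO and 44.7 to 48.1 in WT for stellate cells (10). For lymphocytes (9) they were 0 to 2.66 in HSKO and 1.53 to 3.95 in WT, and for red blood cells (6) 14.5 to 21.3 in HSKO and 14.1 to 25.0 in WT.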

Additional observations from a re-analysis of the deposited data

How the results depend on the processing

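Of 159 values of the 8 tested members under other settings, 133 kept their direction and their side of the threshold, 14 passed it only under the alternative, 6 no longer passed it and 6 changed sign. The changes of sign were those of Abcg8 (0.27), Abcc3 (0.29), Slc10a1 (0.0071) and Slco1a1 (0.082) with scaling to hepatocyte markers, of Abcg8 (0.41) with scaling to the sinusoidal carriers, and of Abcc3 without HSKO replicate 2 (0.012, with a range of -0.44 to 0.012 over the libraries left out). Scaling to the sinusoidal carriers and to total reads without BC071253 were added after the data were seen.

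Canalicular exporters called lower numbered 3 in the settings run, except 4 with total reads, 1 with the hepatocyte markers as scale and 0 with the sinusoidal carriers as scale. A minimum mean of 50 left none of them to test. Sinusoidal carriers called lower numbered 3 with upper quartile scaling, quantile normalization and TMM, 2 with DESeq2, 4 with total reads with or without BC071253 and 0 with hepatocyte markers. The log2 difference of the side ratio was -0.30 without Abcc2, -0.54 without Abcg8 and -0.67 without Slco1b2.

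Over all genes, 783 were called higher and 320 lower. Higher calls numbered 391 with a minimum mean of 50, 221 with total reads, 429 without BC071253 and 1258 with the sinusoidal carriers. Lower calls numbered 211 with no filter, 118 with a minimum mean of 50, 703 with upper quartile scaling, 502 with quantile normalization, 601 with TMM, 1044 with total reads, 913 without BC071253, 21 with hepatocyte markers and 16 with the sinusoidal carriers. With a library left out, higher calls ranged from 581 to 822 and lower calls from 157 to 313 (159 without WT replicate 2, 157 without WT replicate 3), canalicular calls stayed at 3, sinusoidal calls at 1, and the side ratio lay between -0.46 and -0.35. The cause of these movements was not tested.

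With the replicate number as a block, 751 genes were higher and 269 lower, and 3 canalicular exporters and 1 sinusoidal carrier were lower. Deviations of libraries with the same number were not correlated (r = -0.03, -0.03 and -0.02), so no pairing by number was seen. With deviations taken from a mean of 3 shallow libraries, this check cannot exclude pairing.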
